A study of Homo sapiens with 6 samples.

Results

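The interferon-stimulated genes were examined in Du145 cells, an established human prostate carcinoma line, after knockdown of the tumour suppressor gene TSC2. The 40 genes were listed by symbol as known targets of interferon, with no threshold on their values. Of these, 38 had a probe set of their own among the 18417 genes tested, and none of the 38 had more than 1. The probe set of GBP1 is shared with GBP1P1 and GBP3, and STAT2 has no probe set named here, so neither was analysed here. The series compared 3 groups of 2 arrays each. The shTSC2 cells had been infected with a lentivirus to lower TSC2. The shTSC2-adapted cells carry the same treatment in the labels, which call them adapted from the knockdown without saying how. The control cells have no virus or hairpin in the labels, so lower TSC2 and an effect of virus or hairpin cannot be told apart. All 3 groups were the same cell line, kept at 37 °C and 5% CO2 in medium rich in glucose that held 10% serum, and RNA was taken after 24 h at 1% oxygen. Nothing says whether arrays of a group came from separate cultures, so the p-values reflect array-to-array spread alone, and that spread may be technical.

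Interferons are cytokines that cells release on sensing viral nucleic acid. Type I and III interferons act through receptor-bound Janus kinases, and a complex that holds STAT2 and IRF9 then enters the nucleus and binds the interferon-stimulated response element (ISRE). Interferon-gamma acts on another element, GAS. Lentiviral RNA and double-stranded hairpin RNA are known to be able to switch these genes on in cells that sense them. Du145 cells are known for lacking functional JAK1 protein, a kinase that all of these receptors use.

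The promoters of 4 members are shown because these genes changed in shTSC2 cells and differ in which elements they carry. The windows are RefSeq's on GRCh38.p14, from 250 bases before to 50 after the transcription start, and 33 of the 40 members had at least 1 (those of IRF7, OAS2, MX2, TRIM22, OASL, USP18 and IFIT2 were not used here). Capitals mark matches on either strand to the ISRE core (GAAA, any 2 bases, then GAAA), the GAS core TTCNNNGAA, which reads the same on both strands, or the NF-kB consensus. IRF1 lies at chr5:132490724-132491023, minus strand, IFI6 at chr1:27672143-27672442, minus strand, IFIT1 at chr10:89392373-89392672, plus strand and SAMD9 at chr7:93117930-93118229, minus strand.
IRF1: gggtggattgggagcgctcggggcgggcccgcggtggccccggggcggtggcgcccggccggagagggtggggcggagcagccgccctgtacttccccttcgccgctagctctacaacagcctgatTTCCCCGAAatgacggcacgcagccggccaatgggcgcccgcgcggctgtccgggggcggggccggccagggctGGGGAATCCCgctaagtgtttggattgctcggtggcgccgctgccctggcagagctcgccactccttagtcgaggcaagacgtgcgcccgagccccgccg
IFI6: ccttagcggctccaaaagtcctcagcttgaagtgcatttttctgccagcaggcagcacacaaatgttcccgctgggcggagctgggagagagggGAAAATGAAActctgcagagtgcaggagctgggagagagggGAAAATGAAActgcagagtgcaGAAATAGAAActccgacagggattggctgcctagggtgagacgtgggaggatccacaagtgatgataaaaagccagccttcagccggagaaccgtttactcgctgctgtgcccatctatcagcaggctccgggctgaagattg
IFIT1: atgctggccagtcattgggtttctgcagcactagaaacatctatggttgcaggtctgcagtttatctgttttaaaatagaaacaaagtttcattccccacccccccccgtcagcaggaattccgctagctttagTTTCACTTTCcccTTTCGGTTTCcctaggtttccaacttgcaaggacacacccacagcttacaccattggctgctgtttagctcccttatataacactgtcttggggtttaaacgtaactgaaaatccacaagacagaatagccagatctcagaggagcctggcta
SAMD9: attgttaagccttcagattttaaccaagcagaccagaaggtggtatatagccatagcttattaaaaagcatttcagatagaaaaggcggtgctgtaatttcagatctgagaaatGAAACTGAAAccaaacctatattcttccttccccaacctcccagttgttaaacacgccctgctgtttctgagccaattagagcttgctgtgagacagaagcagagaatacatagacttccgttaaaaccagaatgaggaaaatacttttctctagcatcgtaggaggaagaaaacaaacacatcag
The IRF1 window holds 1 GAS core and 1 NF-kB match and no ISRE core. The IFI6 window holds 3 ISRE cores, that of IFIT1 holds 2 and that of SAMD9 holds 1, and none of these 3 has a GAS or NF-kB match. At least 1 ISRE core was found in 59.1% of the 44 member windows, against 3.57% of all 35116 windows. For the GAS core the shares were 22.7% against 7.66%, and for the NF-kB consensus 15.9% against 11.3%. Overlapping matches each counted, and a match is a stretch of letters, not a tested site.

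TSC2 itself was checked first. Its log2 intensity was 6.67 and 6.55 on the shTSC2 arrays, 6.54 and 6.48 on the shTSC2-adapted arrays, and 7.52 and 7.59 on the control arrays, which left 51.9% (95% interval 44.4% to 60.8%) of the control level in shTSC2 and 48.5% (41.4% to 56.7%) in shTSC2-adapted. Of 5 epithelial markers, the keratins KRT8 (11.22 to 11.50) and KRT18 (11.23 to 11.50) were bright on every array, while in shTSC2 another keratin gene, KRT19, fell by 1.38 (adjusted p = 0.00664) and EPCAM, an adhesion molecule of epithelia, fell by 1.29 (0.0271). KRT19, EPCAM and CDH1, which encodes E-cadherin, were higher in shTSC2-adapted than in shTSC2 by 1.55, 1.65 and 1.54. Against control, CDH1 changed by -0.14 in shTSC2 (adjusted p = 0.722) and by 1.40 in shTSC2-adapted (0.068). Of 9 leukocyte markers 3 were above background, and PTPRC, the pan-leukocyte marker, lay at 3.49 to 3.58. CD68, a lysosomal protein gene, measured 8.41 and 8.33 in shTSC2, against 7.80 and 7.70 in control, and rose by 0.62 (adjusted p = 0.00674). Both shTSC2 arrays lay above both controls for 5 of the 9 (55.6%, against 32.4% of all genes), and both shTSC2-adapted arrays lay below both shTSC2 arrays for 6 of the 9 (66.7%, against 27.1%). The median level of the 9 was 4.98 to 5.02 in shTSC2, 4.82 to 4.88 in shTSC2-adapted and 4.78 to 4.89 in control. The part of these marker changes in the results below was not tested. The 2 arrays of a group correlated across genes at 0.990 in shTSC2, 0.994 in shTSC2-adapted and 0.997 in control (Pearson r, genes not being independent replicates). Median intensities were 58.1 to 63.1. Levels are given as log2 intensity. A change is the mean of the first-named group minus that of the other (n = 2 arrays per group), with its standard error (SE), and its adjusted p-value is two-sided and comes from limma over 18417 genes.

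Of the interferon-stimulated genes, 13 lay at or below a background limit taken from olfactory receptor genes, most of which are known mainly from the nose. The limit was 5.23, the 95th percentile of the mean level of 338 olfactory receptor genes, and 71.7% of all genes lay above it. OR51E1 and OR51E2, members of that family known in prostate, measured 4.88 and 4.33 on average, and without them the limit was 5.24, with 25 members above it. Of the 38 members, 25 lay above the limit. The dim group held classical markers of an interferon response: IFI44L (3.51 on average over the 6 arrays), IFI44 (3.64), TRIM22, an antiviral TRIM protein (3.70), RSAD2, which encodes viperin (3.73), DDX60 (4.09), SAMD9L (4.11), IFIH1, which encodes the RNA sensor MDA5 (4.31), BST2, which encodes the virus tether tetherin (4.63), OAS2 (4.65), MX2 (4.91), XAF1 (4.97), SAMD9 (4.98) and OASL (5.07). Just above the limit stood IFIT2 (5.52), PARP9 (5.53) and MX1 (5.60). The brightest members were TRIM25, a ubiquitin ligase (8.76), EIF2AK2, which encodes the RNA-activated kinase PKR (8.60), IFI6 (7.89), IFI35 (7.80) and USP18, the protease that removes ISG15 (7.72). Levels of different genes rest on different probes, so the order is a rough guide only.

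**Figure D1:**
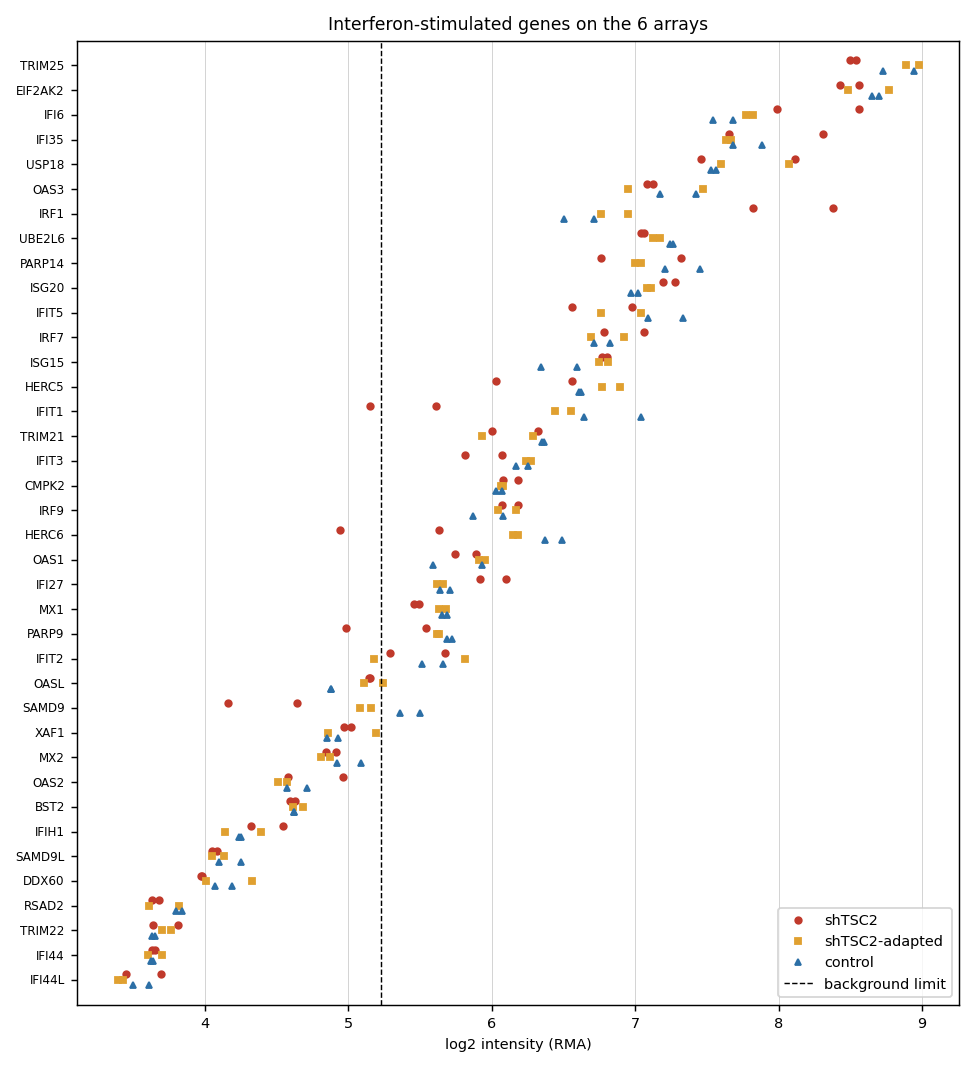
Log2 intensity of the 38 interferon-stimulated genes on every array, ordered by their mean, with red circles for shTSC2, orange squares for shTSC2-adapted and blue triangles for control. The dashed line is the background limit of 5.23; 13 genes have their mean below it, and the shTSC2 circles of IRF1 stand apart to the right and those of IFIT1, HERC6 and SAMD9 to the left.

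The first comparison asks how the genes stood in shTSC2 cells against control cells. Of 38 members, IRF1 and IFI6 rose, IFIT1, HERC6 and SAMD9 fell, and 33 did not pass. Rises were 5.26% of the members, against 6.87% of all genes tested, and falls 7.89%, against 13.9% of all genes, so neither share exceeded the background. Among the 25 members above background 2 rose and 2 fell, 8% each, where 8.73% of all genes above background rose and 18.7% fell. The 33 members that did not pass each changed by less than 0.5. The median change was -0.06 over the 38 members and -0.18 over the 25 above background, beside 0.03 and 0.01 over the corresponding genes of the whole array. Arrays of the groups did not overlap for 9 members that were higher (23.7%, against 32.4% of all genes) and for 17 that were lower (44.7%, against 29.6%). These calls depended on single arrays: 8 members passed without shTSC2 1 (1 rise and 7 falls), 8 without shTSC2 2 (4 and 4), 3 without control 1 and 2 without control 2.

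Among the transcription factors, IRF1 moved most. IRF1 is a factor that interferon-gamma and NF-kB signalling both induce, and it activates antigen presentation genes. Its level was 8.38 and 7.82 on the shTSC2 arrays, against 6.71 and 6.50 on the control arrays. Both shTSC2 arrays lay more than 1 log2 unit above both controls. IRF1 rose by 1.50 (SE 0.19, adjusted p = 0.00195), a 2.82-fold difference, and passed under all 16 alternatives. IRF7, the factor that amplifies type I interferon production, stood at 0.16 (adjusted p = 0.463), and IRF9, the DNA-binding partner of STAT2, at 0.15 (adjusted p = 0.403).

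The IFIT proteins bind foreign RNA and block its translation. IFIT1, which recognises viral RNA by its cap, measured 5.61 and 5.15 on the shTSC2 arrays, against 6.64 and 7.04 on the control arrays. The groups were far apart, and 1 of the shTSC2 arrays was below the background limit. IFIT1 fell by 1.46 (SE 0.18, adjusted p = 0.00203), 2.75-fold lower on average, and passed under each of the 15 alternatives that kept it. The other 3 members of the family lay lower without passing: IFIT5 at -0.44 (adjusted p = 0.116), IFIT3 at -0.27 (0.144) and IFIT2 at -0.11 (0.776). IFIT2, the member nearest above the background limit, measured 5.67 and 5.29 in shTSC2, against 5.51 and 5.66 in control, with the groups overlapping.

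ISG15 is a ubiquitin-like protein, UBE2L6 its conjugating enzyme, HERC5 its main human ligase and USP18 the protease that reverses it. HERC6, a relative of HERC5 on the same chromosome, measured 5.63 and 4.94 in shTSC2, against 6.37 and 6.49 in control. Its control values were well above background, while the lower shTSC2 value was below the limit. HERC6 fell by 1.15 (SE 0.20, adjusted p = 0.00753). It no longer passed with control 1 (0.0528) or control 2 (0.0762) left out. Of the rest of the system, ISG15 stood at 0.32 (adjusted p = 0.0853), USP18 at 0.24 (0.511), UBE2L6 at -0.20 (0.167), HERC5 at -0.32 (0.229) and TRIM25, a ubiquitin ligase that acts on RIG-I and is itself modified by ISG15, at -0.32 (0.0797). Conjugation genes and the protease thus did not move one way, and HERC6 was the member of the group that passed.

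SAMD9, a growth-restraining and antiviral gene next to its paralog SAMD9L, measured 4.64 and 4.16 in shTSC2, against 5.36 and 5.50 in control. Both control arrays were just above the background limit and both shTSC2 arrays below it, so the direction is measured but the size of the fall is uncertain. SAMD9 fell by 1.03 (SE 0.16, adjusted p = 0.00430), and the call ended without control 2 (0.0553). SAMD9L, dim on every array, stood at -0.11 (adjusted p = 0.489). The ADP-ribosyltransferase genes PARP9 (-0.45, adjusted p = 0.113) and PARP14 (-0.29, 0.315) did not pass, although PARP9 passed with quantile normalization and with median centring.

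IFI6, which encodes a small interferon-induced protein that restrains apoptosis, was the other member that rose. It measured 8.56 and 7.99 in shTSC2, against 7.54 and 7.68 in control. The higher shTSC2 array set most of the difference. IFI6 rose by 0.67 (SE 0.18, adjusted p = 0.0357). It passed under 8 of 16 alternatives, and leaving out shTSC2 1 took it to 0.38 (adjusted p = 0.0586). It also missed the threshold with control 1 (0.204), control 2 (0.137) or either shTSC2-adapted array (0.0642) left out. IFI27, from the same gene family, stood at 0.34 (adjusted p = 0.0567), IFI35 at 0.20 (0.538), and the dim genes IFI44, IFI44L and XAF1 between 0.01 and 0.11.

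The OAS genes, the kinase gene EIF2AK2 and the other antiviral genes named next did not pass. OAS1, OAS2, OAS3 and OASL belong to the oligoadenylate synthetase family, whose active members switch on the ribonuclease RNase L, and EIF2AK2 halts translation on double-stranded RNA. Their changes ran from -0.20 in OAS3 to 0.27 in OASL, with the lowest adjusted p, 0.0924, for OASL (95% interval 0.04 to 0.49). OASL, the member nearest below the background limit, measured 5.15 and 5.14 in shTSC2, against 4.88 on both control arrays. EIF2AK2 measured 8.56 and 8.43 in shTSC2, against 8.65 and 8.70 in control, lower on every array but by only 0.18 (adjusted p = 0.351). MX1, an antiviral GTPase, measured 5.49 and 5.46 in shTSC2, against 5.69 and 5.65 in control (-0.20, adjusted p = 0.179). The sensor genes IFIH1 (0.19) and DDX60 (-0.16), TRIM21, an antibody receptor in the cytosol (-0.20), TRIM22 (0.09), MX2 (-0.13), BST2 (-0.01), RSAD2 (-0.17), CMPK2, a mitochondrial nucleotide kinase encoded beside RSAD2 (0.08), and ISG20, an RNA exonuclease (0.24), did not pass either (adjusted p = 0.115 to 0.958).

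**Figure D2:**
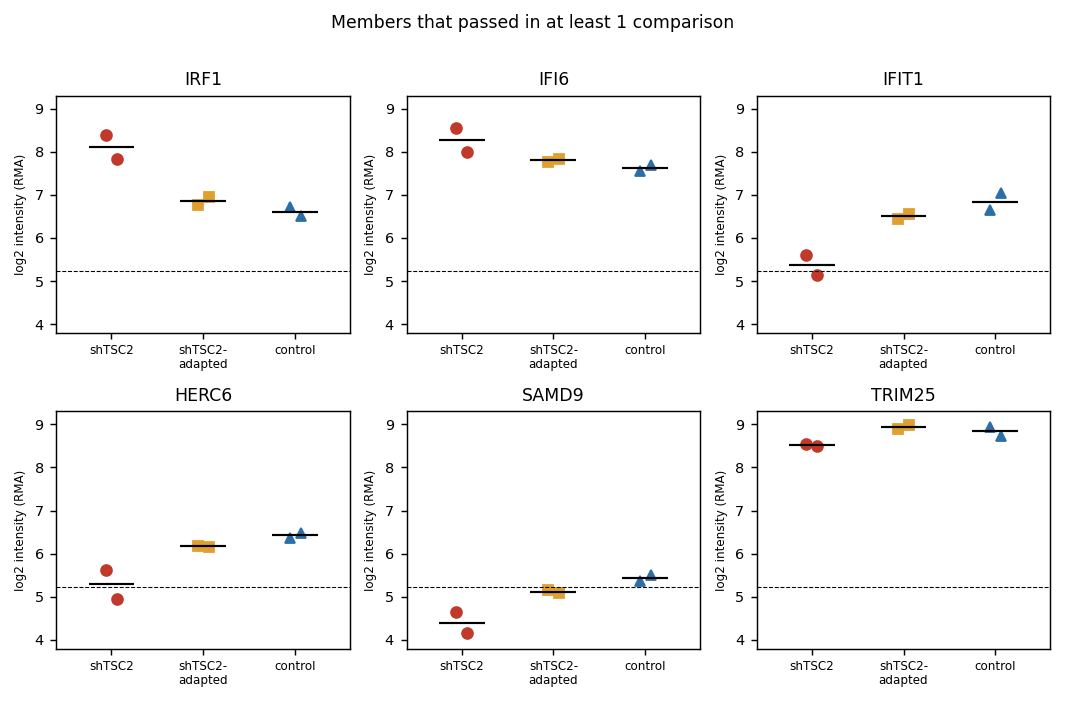
Log2 intensity on each array for the 6 members that passed in at least 1 comparison, with shTSC2, shTSC2-adapted and control from left to right. Bars are means of 2 arrays and the dashed line is the background limit of 5.23; IRF1 and IFI6 are highest in shTSC2, and IFIT1, HERC6 and SAMD9 are lowest there.

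The members that changed included genes with and without an ISRE core. Of the 21 measured members with an ISRE core in a window, 1 rose (IFI6) and 2 fell (IFIT1 and SAMD9), around a median change of -0.18, with changes from -1.46 to 0.67. These were 4.76% and 9.52% of the 21, beside 6.87% and 13.9% of all genes. Of the 10 measured members whose windows held none, 1 rose (IRF1) and 1 fell (HERC6), around a median of 0.07, with changes from -1.15 to 1.50, or 10.0% each way. Only exact matches counted. Among the members without a core, windows of OAS1, CMPK2, IFI35, TRIM25 and XAF1 hold a GAAA pair spaced by 1 base, on either strand. Such pairs were not counted. In the windows shown above, ISRE cores stand before a gene that rose (IFI6) and before genes that fell (IFIT1, SAMD9). No test of this was made.

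The second comparison set shTSC2-adapted cells against control cells. By limma, 0 of the 38 members passed and 2, OASL and ISG15, had an unadjusted p under 0.05. In the whole array 0.0543% of genes were higher and 0.206% lower (0.0758% and 0.280% of the genes above background), so few calls were made for any gene. The members' changes ran from -0.35 in IFIT1 to 0.32 in ISG15, around a median of 0.00, beside -0.01 over all genes. Their 95% intervals lay between -0.77 and 0.82. Arrays did not overlap for 8 members that were higher (21.1%, against 21.8% of all genes) and 11 that were lower (28.9%, against 24.1%), a split that median centring of the arrays turned into 4 and 13. IFIT1 measured 6.44 and 6.55 in shTSC2-adapted, against 6.64 and 7.04 in control (-0.35, SE 0.18, adjusted p = 0.520). ISG15 measured 6.75 and 6.81 in shTSC2-adapted and 6.80 and 6.77 in shTSC2, against 6.59 and 6.34 in control. All 4 knockdown arrays of ISG15 thus lay above both controls, by 0.32 in shTSC2-adapted (SE 0.11, adjusted p = 0.298) and 0.32 in shTSC2. IFIT5 measured 6.76 and 7.04 in shTSC2-adapted, against 7.09 and 7.33 in control (-0.31, adjusted p = 0.534). PARP14 measured 7.00 and 7.04 in shTSC2-adapted, against 7.21 and 7.45 in control (-0.31, adjusted p = 0.566). Neither overlapped with control, and neither passed.

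The third comparison set shTSC2-adapted cells against shTSC2 cells. It uses the same shTSC2 arrays as the first, so the comparisons are not independent. IFIT1, HERC6, SAMD9 and TRIM25 were higher in shTSC2-adapted and IRF1 was lower, while 33 members did not pass. Higher calls made up 10.5% of the members, against 9.25% of all genes (12.6% of those above background), and lower calls 2.63%, against 3.24% (4.05%). The median change was 0.03, beside -0.03 over all genes. IRF1 measured 6.76 and 6.95 in shTSC2-adapted, against 8.38 and 7.82 in shTSC2 (-1.25, SE 0.19, adjusted p = 0.00719). IFIT1 stood 1.12 higher (SE 0.18, adjusted p = 0.0100). HERC6 measured 6.18 and 6.15 in shTSC2-adapted, against 5.63 and 4.94 in shTSC2 (0.88, SE 0.20, adjusted p = 0.0315). In these 3 genes the shTSC2-adapted arrays lay near the control arrays and away from the shTSC2 arrays.

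SAMD9 measured 5.16 and 5.08 in shTSC2-adapted, just under the background limit, against 4.64 and 4.16 in shTSC2 (0.72, SE 0.16, adjusted p = 0.0271). TRIM25 measured 8.89 and 8.98 in shTSC2-adapted, against 8.54 and 8.50 in shTSC2 (0.42, SE 0.11, adjusted p = 0.0455). TRIM25 passed under 4 of 16 alternatives and missed the threshold with the replicate block (0.0680), while HERC6 and SAMD9 each passed under 9 of 15. HERC5 was 0.54 higher in shTSC2-adapted without passing (adjusted p = 0.0828). Arrays did not overlap for 11 members that were higher (28.9%, against 25.0% of all genes) and 6 that were lower (15.8%, against 27.1%). The number of members that passed fell to 0 without shTSC2-adapted 1, 1 without shTSC2-adapted 2 and 2 without either control array, and was 8 without shTSC2 2. Without shTSC2-adapted 1 IRF1 still stood at -1.15 (adjusted p = 0.0566) and IFIT1 at 1.17 (0.0562).

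**Figure D3:**
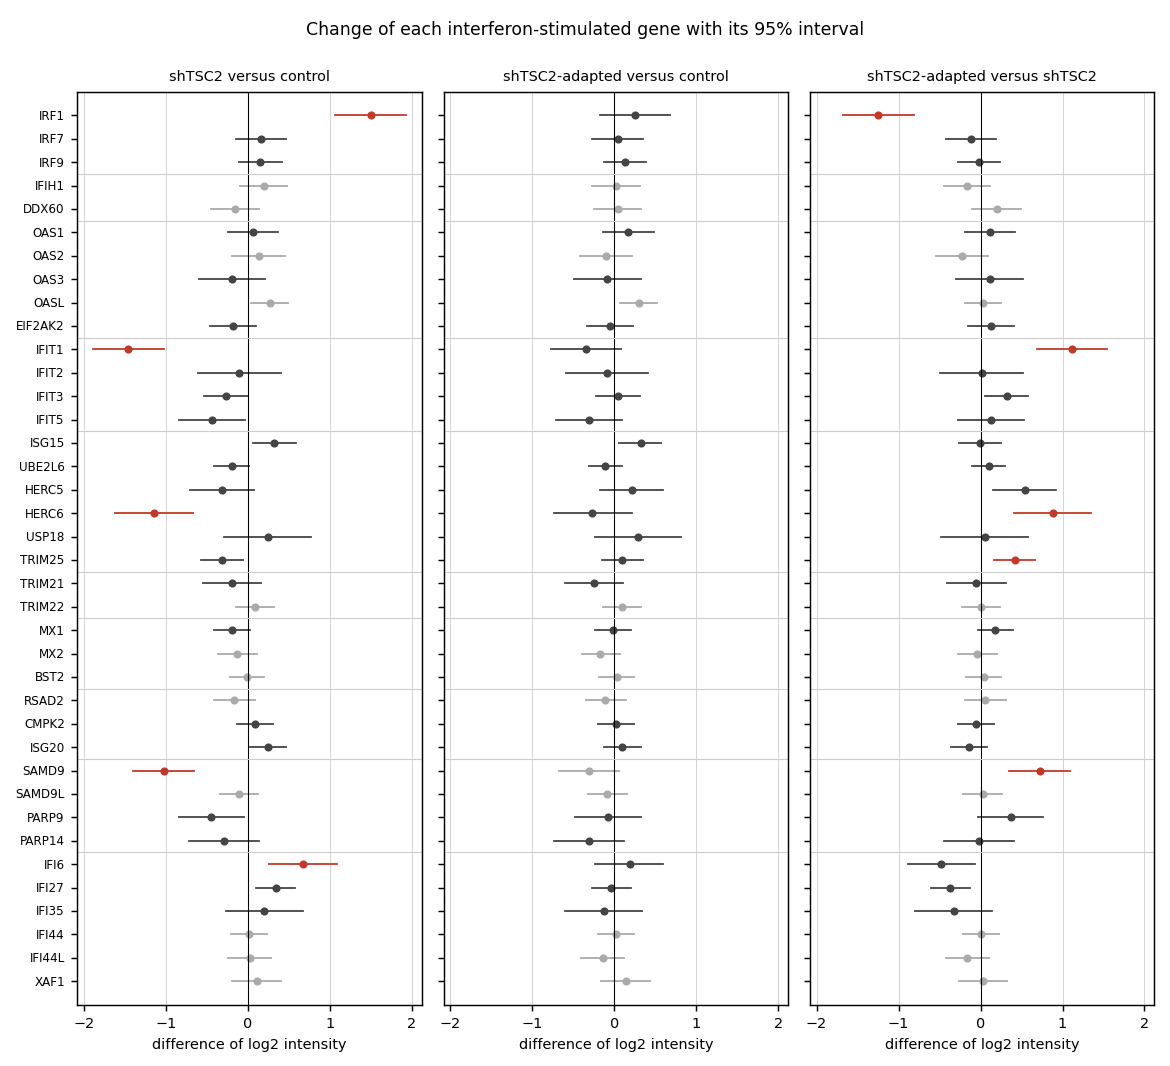
Difference of log2 intensity with its 95% interval for each of the 38 members in the 3 comparisons, grouped by role. Red marks an adjusted p under 0.05, dark grey other members above background and light grey members at or below it; 5, 0 and 5 members are red.

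The 2 shTSC2 arrays differed from each other at many of these genes. Of the 25 members above background, 22 were higher on shTSC2 1 than on shTSC2 2 (88%), beside 54.8% of all genes above background. The gap exceeded 0.5 at 8 of the 25 (32%, beside 7.93%): HERC6 (0.69 higher on shTSC2 1), IFI35, USP18, IFI6, IRF1, PARP9, PARP14 and HERC5. USP18, for example, measured 8.11 and 7.46, and IFI35 8.31 and 7.65. These 8 include genes that rose, genes that fell and genes that did not pass. In shTSC2-adapted the gap exceeded 0.5 at 2 members, OAS3 and IFIT2, and in control at 0. Against the control mean, the median of the 25 members was -0.01 on shTSC2 1 and -0.19 on shTSC2 2, where all genes above background stood at 0.02 and -0.03. Whether the 2 arrays came from separate cultures or infections is not given, and the part of this gap in the results was not tested beyond leaving out each array.

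**Figure D4:**
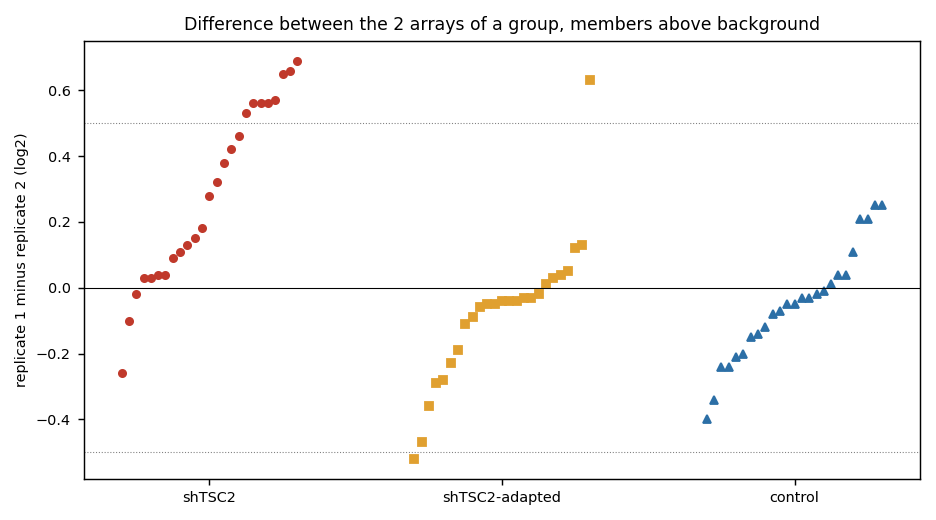
Replicate 1 minus replicate 2 on the log2 scale for each of the 25 members above background, sorted within each group, with shTSC2 and shTSC2-adapted left of control. Dotted lines mark a gap of 0.5; 22 of the 25 shTSC2 points lie above 0, and 8 lie above the upper line.

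Other parts of the pathway were read in the same fit. Of 16 measured interferon ligand genes, 12 were at or below the background limit, and IFNB1, the first type I interferon made by infected cells, measured 3.58 and 3.65 in shTSC2, 3.56 and 3.51 in shTSC2-adapted, and 3.69 and 3.59 in control. None of the 16 passed against control in either knockdown group. IFNL1, a type III interferon, was lower in shTSC2-adapted than in shTSC2 (5.55 and 5.63 against 5.99 and 5.96; -0.39, adjusted p = 0.0369). Some interferon genes are near-identical to others of their family, so signal on one of those may come from another. All 9 measured receptor and kinase genes were above background. In shTSC2 the shared receptor chain IL10RB (0.55, adjusted p = 0.00869) and the kinase JAK2 (0.42, 0.0277) rose and IFNGR2, a chain of the interferon-gamma receptor, fell (-0.37, 0.0301). These were 22.2% and 11.1% of the list, beside 8.73% and 18.7% of all genes above background. IFNAR1, a chain of the type I receptor, measured 8.46 and 9.10 in shTSC2, against 9.38 and 9.50 in control, lower on both arrays without passing (-0.66, adjusted p = 0.0647). IFNAR2, the other chain, stood at 0.32 (0.0592). The JAK1 transcript measured 8.79 and 9.10 in shTSC2, 8.85 and 9.05 in shTSC2-adapted, and 9.33 and 9.23 in control (-0.34 and -0.33, adjusted p = 0.124 and 0.364), and a transcript level says nothing about its protein.

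Of 19 nucleic acid sensors and adaptors, 3 fell in shTSC2 and none rose, and 15.8% is close to the 13.9% of all genes that fell. They were STING1, the adaptor for cytosolic DNA (-0.57, adjusted p = 0.0224), MAVS, the adaptor for the RNA sensors (-0.49, 0.0293), and TBK1, the kinase that acts on IRF3 (-0.42, 0.0240). STING1 was also higher in shTSC2-adapted than in shTSC2 (0.82, adjusted p = 0.00970). Of 8 feedback genes, SOCS3, an inhibitor of Janus kinases, rose (0.40, adjusted p = 0.0432) and PIAS1 (-0.98, 0.00331) and IRF2, a repressor that competes with IRF1 (-1.01, 0.00697), fell, 12.5% and 25% of the list, beside 8.73% and 18.7% of all genes above background. IRF2 measured 5.43 and 5.98 in shTSC2, against 6.63 and 6.81 in control, the opposite direction to IRF1.

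Of 19 measured genes that interferon-gamma and NF-kB signalling share, 9 rose in shTSC2 (47.4%, beside 6.87% of all genes) and none fell. Their median change in shTSC2 was 0.34. The list was chosen with earlier results of these data known, so its shares are a description only. Of the 19, 6 were lower in shTSC2-adapted than in shTSC2 (31.6%, beside 3.24% of all genes). B2M, the light chain of class I molecules, measured 11.31 and 11.17 in shTSC2, against 10.51 and 10.35 in control (0.81, adjusted p = 0.00279). CCL5, a chemokine, measured 5.70 and 5.75 in shTSC2, against 4.83 and 4.88 in control (0.87, adjusted p = 0.00122). Its mean (5.14) and both control arrays lay below the background limit, so the size of its rise is uncertain. The largest rises were those of the peptide transporter gene TAP1 (1.97, adjusted p = 0.000256) and of PSMB9, an immunoproteasome subunit (1.58, 0.00176). SOD2, a mitochondrial enzyme that NF-kB induces, rose by 1.49 (adjusted p = 0.000642). The immunoproteasome subunit PSMB8 rose by 0.88 (0.00292) and the transporter gene TAP2 by 0.64 (0.0195). Smaller rises were those of PSMB10 (0.43, 0.0330) and WARS1 (0.36, 0.0459). The interferon-inducible chemokine CXCL10, also dim, stood by contrast at 0.03 (adjusted p = 0.861). Over the 71 measured genes of these 5 lists 12 rose (16.9%) and 6 fell (8.45%) in shTSC2, against 6.87% and 13.9% of all genes. Of the 12 rises, 9 were in the interferon-gamma and NF-kB shared list, 2 among receptors and kinases and 1 among feedback genes. With arrays median-centred, 8 of the 71 rose (11.3%) and 7 fell (9.86%), against 4.72% and 16.1% of all genes in that fit. The 18 calls became 8 without control 1 and 7 without control 2. The difference between the lists was not tested.

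**Figure D5:**
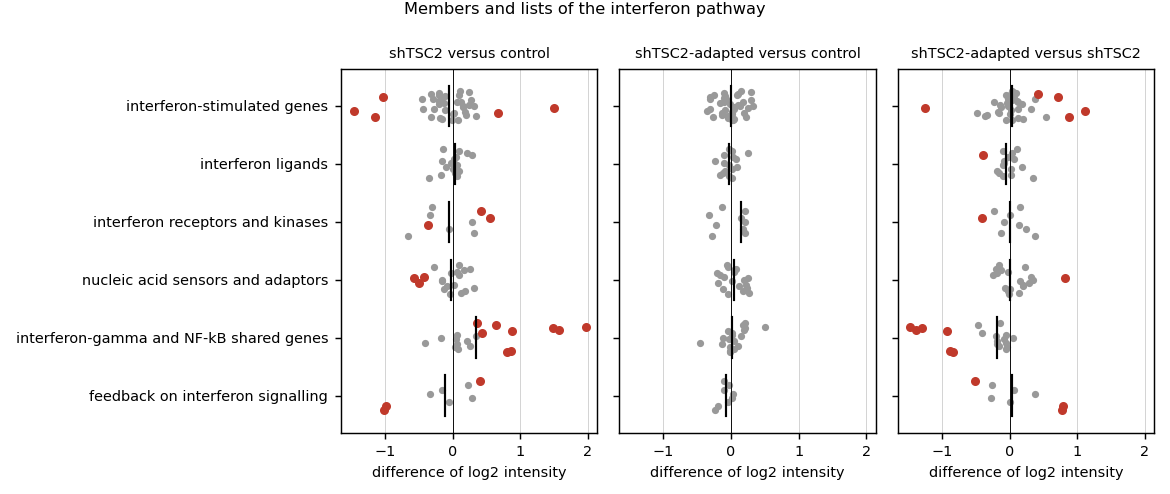
Difference of log2 intensity for the 38 members and the 71 measured genes of 5 other lists of the interferon pathway in the 3 comparisons, with a dot per gene, red for an adjusted p under 0.05, and a bar at each list's median. In shTSC2 the median of the interferon-gamma and NF-kB shared genes is 0.34 and that of the interferon-stimulated genes is -0.06. The lists were chosen with earlier results of these data known.

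Genes of the RNA interference machinery were also read, since hairpins use part of it. Of 10 genes, DICER1 (0.81, adjusted p = 0.00333), DGCR8 (0.78) and PRKRA, a partner of both DICER1 and PKR (0.40), rose in shTSC2, and AGO4 (-1.09) and DROSHA (-0.69) fell. These were 30% and 20% of the list, beside 8.73% and 18.7% of all genes above background. In shTSC2-adapted none of the 10 passed against control, DICER1 standing at 0.67 (adjusted p = 0.0748) with both arrays above both controls.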

How the data were processed

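Expression was measured on 6 arrays of Du145 cells, 2 per group, with groups taken from the labels. Per the labels' protocols, 100 ng of Trizol-extracted RNA was labelled with biotin. The deposited values are linear-scale intensities, one for each probe set on each array, made with RMA per the submitters' processing notes. No RMA version, probe definition or genome build is given in the sources used here. RMA brings the distributions of the arrays together, which can hide part of a shift common to most genes. Every deposited intensity was the power of 2 of a number with 2 decimals, and log2 values were used.

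Gene symbols came from the annotation given for the platform: of 33297 probe sets, 19460 had 1 symbol, 1754 several and 12083 none here, and 19429 matched the RefSeq gene table, with 0 symbols updated. The set with the highest mean per gene was kept, leaving 18417 genes. Using limma 3.58.1 (lmFit, contrasts.fit and eBayes; R 4.3.3), the 6 arrays entered a single fit with a mean per group, with 3 residual degrees of freedom, Benjamini-Hochberg adjustment over all genes and a threshold of 0.05. The code was tested on simulated data. The members, lists and tests were chosen with earlier results of these data known. Array-by-array values are given for members that passed, those with the largest changes and those nearest the background limit, and other members are named for their role.

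Alternatives were quantile normalization, median centring, dim genes left out, every probe set tested, only the 4 arrays compared, array weights, an intensity trend with a robust prior, log2 of intensity plus 16, the replicate number as a block, the gene length trend removed, and each array left out. No scan date or other batch is given.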

Additional observations from a re-analysis of the deposited data

How the results depend on the processing

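Over 16 alternatives per comparison, members that passed in shTSC2 versus control numbered 2 to 8 with an array left out and 2, both rises, with dim genes left out, where only 14 members were tested. An arm left with 1 array was assumed to vary like the other groups. In shTSC2-adapted versus shTSC2 they numbered 0 to 8 with an array left out, 2 with dim genes left out, 2 with only the 4 arrays compared and 3 with log2 of intensity plus 16. In shTSC2-adapted versus control the count was 0 under each alternative. The 18 calls over the pathway lists in shTSC2 became 7 to 20 with an array left out, the 12 in shTSC2-adapted versus shTSC2 became 6 to 15, and the 0 in shTSC2-adapted versus control became 1 with array weights. The fall of TSC2 in shTSC2-adapted kept its size (-1.08 to -1.01 with an array left out) but ended without either control (adjusted p = 0.386 and 0.372), without shTSC2-adapted 1 (0.169) or 2 (0.0973) and with the replicate block (-1.05, adjusted p = 0.0515). The cause was not tested. No call of IRF1, IFIT1, HERC6, SAMD9, IFI6 or TRIM25 reversed. Members above background numbered 20 to 29 under other limits.

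Replicate numbers are shared by name only: deviations of same-numbered arrays correlated at -0.102, -0.187 and 0.212. With the replicate block, 5, 0 and 4 members passed. Arrays have no depth, and the sizes of changes in the 13 dim members are uncertain. The limit without OR51E1 and OR51E2 was chosen after seeing the data.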
